A study of Mus musculus with 8 samples.

Results

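Transcripts of 8 genes that start and build autophagosomes were followed in the mouse testis: Rb1cc1, Ulk1, Ulk2, Atg13, Becn1, Atg5, Atg7 and Map1lc3b. They were taken by name from the 54087 genes counted in each library. Rb1cc1 was chosen as a gene said to rise strongly in wildtype testes at 25 days post partum (dpp) and not in mutant ones. Its own levels are therefore a description and carry no test. The other 7 were listed by name, with no value of theirs in the rule, and were tested, although the list too was drawn up with earlier results of these data known. RNA came from whole testes of C57BL/6 males of genotype Dnmt3A WT/WT (WT) or Dnmt3A KO/KO (KO), taken at 19 or 25 dpp, with 2 libraries in each of the 4 groups and 8 libraries in all. Dnmt3a encodes an enzyme that places new DNA methylation. The labels do not state which part of the gene is deleted or whether the loss is limited to some cells. They also do not state whether the 2 libraries of a group came from separate animals. The p-values set differences between groups against the spread between libraries within groups. Whether that is a spread between animals is not known.

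Autophagy encloses cytoplasm in a double membrane, the autophagosome, and delivers it to the lysosome. A kinase complex of ULK1 or ULK2 with FIP200 (the product of Rb1cc1), ATG13 and ATG101 starts the process. A lipid kinase complex around Beclin 1 then marks the membrane, and a conjugation pathway that includes ATG7 and ATG5 attaches LC3 (the product of Map1lc3b is one form) to it. In the testis, Atg7 is known from germ cell knockouts to be needed for the acrosome, the cap that forms on the spermatid nucleus. The first wave of male germ cells passes through meiosis and begins to form spermatids at about the ages sampled.

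In WT, transcripts of Rb1cc1, Ulk2 and Atg7 were 4.52, 2.24 and 4.05 times as abundant at 25 dpp as at 19 dpp, while those of Ulk1 and Atg5 were 0.543 and 0.483 times as abundant. In KO at 25 dpp the levels of these genes overlapped those of WT at 19 dpp. For Rb1cc1 that overlap is only a description, since the gene was chosen as not rising in KO. The levels of Atg13 and Map1lc3b did not overlap, and of all 23353 genes tested 42.3% did not. Within 1 complex and 1 pathway the members thus parted in WT: Ulk2 from its paralog Ulk1, and Atg7 from its partner Atg5. With libraries scaled by the sum of 25 Sertoli cell markers, the log2 changes of Ulk1 and Atg5 were -0.01 and -0.18. Neither was then called (edgeR adjusted p under 0.05). Under the main scaling, 34.9% of all genes were called higher and 25.4% lower in WT between ages. The start regions of Ulk1, Ulk2, Atg5 and Atg7 are printed because these are the pairs that parted. They are RefSeq promoters on GRCm38.p6, each 250 bases before to 50 bases after the annotated start, 5′ to 3′ on the gene's own strand. Capitals mark matches, on either strand, to 4 short motifs: the cAMP response element half-site TGACG, its full form TGACGTCA (which contains the half-site on both strands), the E-box CACGTG and the MYB motif AACNGNC. Ulk1 is at chr5:110810032-110810331 on the minus strand, Ulk2 at chr11:61855043-61855342 on the minus strand, Atg5 at chr10:44268089-44268388 on the plus strand and Atg7 at chr6:114670846-114671145 on the plus strand.
Ulk1: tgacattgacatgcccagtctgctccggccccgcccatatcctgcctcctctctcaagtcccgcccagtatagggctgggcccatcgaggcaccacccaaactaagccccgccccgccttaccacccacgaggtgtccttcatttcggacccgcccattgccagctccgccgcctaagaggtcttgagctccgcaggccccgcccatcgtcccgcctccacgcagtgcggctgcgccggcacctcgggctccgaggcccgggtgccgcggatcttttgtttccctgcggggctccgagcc
Ulk2: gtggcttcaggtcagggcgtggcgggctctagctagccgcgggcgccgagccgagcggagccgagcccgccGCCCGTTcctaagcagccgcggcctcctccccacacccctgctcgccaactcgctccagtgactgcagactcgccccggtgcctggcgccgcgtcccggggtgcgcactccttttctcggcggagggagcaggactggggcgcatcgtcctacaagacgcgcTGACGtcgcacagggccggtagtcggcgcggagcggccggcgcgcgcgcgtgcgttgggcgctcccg
Atg5: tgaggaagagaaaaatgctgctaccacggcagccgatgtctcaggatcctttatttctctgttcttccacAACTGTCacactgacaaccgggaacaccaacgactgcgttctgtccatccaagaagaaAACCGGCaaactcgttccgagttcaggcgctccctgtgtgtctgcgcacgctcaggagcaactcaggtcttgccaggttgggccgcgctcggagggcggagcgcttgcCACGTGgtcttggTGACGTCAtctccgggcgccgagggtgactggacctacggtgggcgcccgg
Atg7: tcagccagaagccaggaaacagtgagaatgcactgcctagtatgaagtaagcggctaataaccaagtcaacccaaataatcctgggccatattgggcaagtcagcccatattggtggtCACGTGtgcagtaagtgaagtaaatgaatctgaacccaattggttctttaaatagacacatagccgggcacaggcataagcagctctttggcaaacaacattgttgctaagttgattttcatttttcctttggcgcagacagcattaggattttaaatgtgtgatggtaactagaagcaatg

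The Ulk1 window held none of the 4 motifs. The Ulk2 window held a half-site beginning 17 bases before the start and a MYB match, GCCCGTT, beginning 179 bases before it. The Atg5 window held a full element beginning 1 base before the start, an E-box beginning 14 bases before it, and 2 MYB matches. The Atg7 window held an E-box beginning 132 bases before the start, and this RefSeq start lies 27999 bases inside the gene as GENCODE draws it. Of 32851 mouse promoters of this length, 20.8% held the half-site, 1.79% the full element, 7.15% the E-box and 32.8% the MYB motif. G and C made up 68% of the Ulk1 window, 74.7% of Ulk2, 59.3% of Atg5 and 42.7% of Atg7. Promoters were matched for 6 of the 8 genes. The other windows, of Atg13 and Map1lc3b, each held 1 half-site, and that of Map1lc3b also held a MYB match. These matches are letters in a window and were not tested as binding sites.

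Each library held between 22515812 and 50445334 counts over genes. All 8 genes passed the filter on low counts, with raw counts from 437 (Atg5) to 36389 (Rb1cc1) in a library. Levels are given as CPM, a gene's counts relative to the library's total, after TMM scaling, a method that assumes that most genes are at equal levels between libraries. Dnmt3a itself had 141 to 147 CPM in WT and 112 to 114 in KO at 19 dpp, and 48.7 to 70.0 in WT and 67.2 to 76.8 in KO at 25 dpp, and with the deleted part not stated its count is no check of the genotype. Markers of germ cell stages and of Sertoli cells differed widely between groups. Markers of pachytene to secondary spermatocytes summed to 784 to 2053 CPM in WT and 95.0 to 131 in KO at 19 dpp, and to 8968 to 11977 in WT and 531 to 1088 in KO at 25 dpp. Round spermatid markers summed to 77.5 to 256 CPM in WT and 11.5 to 14.8 in KO at 19 dpp, and to 2485 to 4334 in WT and 80.2 to 142 in KO at 25 dpp. Elongating spermatid markers summed to at most 91.0 CPM outside WT at 25 dpp, where they summed to 1590 and 5627, and Prm1, Prm2 and Tnp2 were at 0 in every library outside that group. Markers of Sertoli cells, the somatic nurse cells, summed to 6829 to 7581 CPM in WT and 12350 to 13691 in KO at 19 dpp, and to 3517 to 4378 in WT and 9676 to 11347 in KO at 25 dpp. In KO against WT at 25 dpp 26.1% of all genes tested were called higher and 37.4% lower. All 12 spermatocyte, 14 round spermatid and 12 elongating spermatid markers were called lower there. Of 25 Sertoli markers 22 were called higher, and of 12 spermatogonia markers 9 were called higher and 1 lower. Of other somatic cells 2 of 9 Leydig markers were higher and 4 lower, 2 of 8 peritubular myoid markers were higher and 1 lower, 0 of 9 endothelial markers were higher and 1 lower, and 1 of 10 macrophage markers was higher and 1 lower. Of 13 markers of early meiotic prophase, 11 were called lower in KO than in WT at 19 dpp, where 13.2% of all genes were. In KO 12 were called higher at 25 dpp than at 19 dpp, where 10.2% of all genes were. Their sum in KO went from 497 to 907 CPM at 19 dpp to 2481 to 3361 CPM at 25 dpp. In KO against WT at 25 dpp, 2 were higher and 4 lower. In such bulk samples fewer cells of a type and less RNA per cell cannot be told apart, and the part of these shifts in the results that follow was not tested.

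Rb1cc1 lies at chr1:6206197-6276648 on the plus strand (GRCm38, GENCODE M21). It encodes the scaffold on which the ULK kinase complex assembles. Its levels were 152 and 234 CPM in WT at 19 dpp (193 ± 57.6, SD, n = 2) and 97.8 and 97.7 CPM in KO (97.8 ± 0.0454, SD, n = 2). At 25 dpp they were 992 and 753 CPM in WT (872 ± 169, SD, n = 2) and 159 and 217 CPM in KO (188 ± 41.3, SD, n = 2). Both WT libraries of 25 dpp stood far above all others, and the groups did not overlap except that KO at 25 dpp fell within the span of WT at 19 dpp. The fitted log2 difference between 25 and 19 dpp was 2.18 (SE 0.256) in WT and 0.94 (SE 0.248) in KO, so the KO libraries were also higher at 25 dpp, by 1.92-fold against 4.52-fold in WT. This goes against the wording by which the gene was chosen, that it does not rise in KO. KO was lower than WT by a log2 difference of -0.98 (SE 0.248) at 19 dpp and -2.22 (SE 0.256) at 25 dpp. None of these values has a test, since the gene was chosen on them. Their SEs come from the same fit and are not to be read as a test. Over 17 alternative fits the log2 difference lay between 1.65 (total counts) and 3.06 (Sertoli sum as library size) in WT between ages, between 0.70 and 1.27 in KO between ages, between -1.85 (Sertoli sum) and -0.64 (without the second WT library of 19 dpp) in KO against WT at 19 dpp, and between -3.64 (Sertoli sum) and -1.74 (total counts) at 25 dpp. An antisense gene, 4732440D04Rik, shares 558 exonic bases with Rb1cc1 and was not analysed here, and whether the counting used strand is not given in the sources used here.

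**Figure D1:**
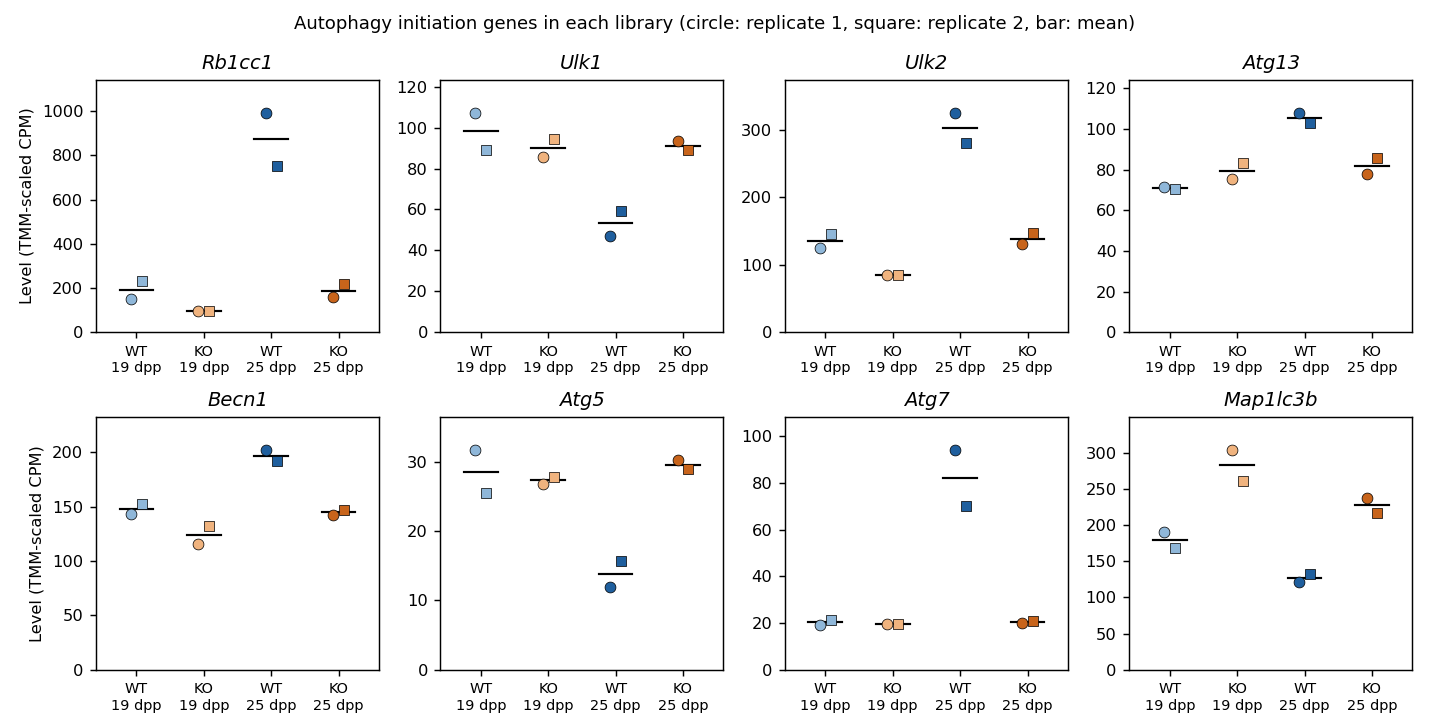
Level of each of the 8 genes in each library, in TMM-scaled CPM on an axis from 0 set for each gene; points are single libraries and bars are the means of the 2 libraries of a group. Rb1cc1, Ulk2 and Atg7 are highest in both WT libraries of 25 dpp, and Ulk1, Atg5 and Map1lc3b are lowest there.

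Among the 7 other genes, all 7 were called in WT between 19 and 25 dpp, 4 higher and 3 lower, in a comparison where 60.3% of 23353 tested genes were called, 34.9% higher and 25.4% lower (edgeR's quasi-likelihood test, Benjamini-Hochberg adjusted p under 0.05). Their median log2 change was 0.41, and that of all genes tested was 0.0086. All 7 were also called in KO against WT at 25 dpp, 3 higher and 4 lower, where 63.5% of genes were called, 26.1% higher and 37.4% lower. Their median was -0.37 beside -0.12 over all genes. At 19 dpp 2 of the 7 were called between KO and WT, 1 in each direction, where 22.0% of genes were called, 8.80% higher and 13.2% lower. In KO 1 of the 7 was called between the ages, as higher, where 19.1% of genes were called, 10.2% higher and 8.87% lower. The KO effect itself differed between the ages for 3 of the 7, 2 upward and 1 downward, where 19.1% of genes were called, 7.68% upward and 11.4% downward. The comparisons of WT between ages and of KO with WT at 25 dpp share the same WT libraries, so their opposite signs are not separate results.

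Several directions depended on how libraries were scaled. With the sum of 25 Sertoli markers as library size, the median log2 change of all genes was -1.54 in KO against WT at 25 dpp and 0.885 in WT between ages, in place of -0.12 and 0.0086; it was -0.82 in KO against WT at 19 dpp and 0.297 in KO between ages. Under that scaling 6 of the 7 were called in KO at 25 dpp, all lower, against 3 higher and 4 lower under TMM, and 4 were called in WT between ages, all higher. Of the 23353 genes tested, 16187 were then called lower and 264 higher in KO at 25 dpp. In WT between ages 11762 were called higher and 469 lower. With total counts as library size the median was 0.341 in KO at 25 dpp and -0.512 in WT between ages, and the splits there were 3 higher and 2 lower, and 2 higher and 3 lower. Over all genes these splits were 8995 higher and 7105 lower, and 6295 higher and 9718 lower. The values of Ulk1, Atg5 and Map1lc3b in KO at 25 dpp under the Sertoli sum, -0.63, -0.30 and -0.58, all lie above that median of -1.54. Ulk2 and Atg7 were called in the same direction in both comparisons under all 17 alternative fits. For the other 5 the alternative that turns or ends the call is given beside the result.

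The ULK kinases moved apart in WT. Ulk1 (chr5:110784488-110810097, minus strand) encodes a kinase that responds to nutrient and energy signals. It had 107 and 89.0 CPM in WT, against 85.7 and 94.3 CPM in KO at 19 dpp, and 47.2 and 59.5 CPM in WT, against 93.4 and 89.1 CPM in KO at 25 dpp. The WT libraries of 25 dpp were the lowest and did not overlap any other group, while the 3 remaining groups overlapped. Ulk1 fell in WT between the ages by 0.88 on the log2 scale (SE 0.161, edgeR adjusted p = 0.00308) and was higher in KO than in WT at 25 dpp by 0.77 (SE 0.160, adjusted p = 0.00411). With the Sertoli sum as library size the first value was -0.01 and not called, and the second turned to -0.63 and was called. KO and WT were not called different at 19 dpp, with a log2 difference of -0.12 (SE 0.159, adjusted p = 0.629 in edgeR). In 1 of 17 alternatives KO was called lower there. The KO effect differed between the ages by 0.90 (SE 0.226, adjusted p = 0.0324 in edgeR). That call ended in 6 of the 8 fits that left out 1 library (all but the second WT library of each age) and under the Sertoli sum, with an adjusted p of up to 0.397 over all alternatives.

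Ulk2 (chr11:61775649-61855073, minus strand) encodes the second kinase of the pair, which can take the place of ULK1 in the complex. It had 125 and 145 CPM in WT, against 85.7 and 85.2 CPM in KO at 19 dpp, and 325 and 280 CPM in WT, against 131 and 146 CPM in KO at 25 dpp. Both WT libraries of 25 dpp stood above all others and both KO libraries of 19 dpp below all others, with KO at 25 dpp beside WT at 19 dpp. Ulk2 rose in WT between the ages by 1.16 on the log2 scale (SE 0.136, edgeR adjusted p = 7.27e-04) and also in KO, by 0.70 (SE 0.136, adjusted p = 0.0148). KO was lower than WT by a log2 difference of -1.12 at 25 dpp (SE 0.136, edgeR adjusted p = 5.59e-04) and of -0.66 at 19 dpp (SE 0.136, adjusted p = 0.0153). The KO effect was not called different between the ages (-0.46, SE 0.191, edgeR adjusted p = 0.126), but it was in 1 of 16 alternatives. The call at 19 dpp ended without the second WT library (adjusted p = 0.0887) or without either KO library of that age (0.126 and 0.0782), and the call in KO ended without either KO library of 19 dpp (0.127 and 0.0772) or the second of 25 dpp (0.0965).

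Atg13 (chr2:91674618-91710576, minus strand) encodes the subunit that links the kinases to FIP200. It had 71.6 and 70.6 CPM in WT, against 75.4 and 83.3 CPM in KO at 19 dpp, and 108 and 103 CPM in WT, against 77.6 and 85.6 CPM in KO at 25 dpp. The WT libraries of 25 dpp were the highest, and the 3 other groups spanned 70.6 to 85.6 CPM. The KO effect on Atg13 was not called different between the ages (-0.53, SE 0.173, edgeR adjusted p = 0.0682), but it was in 3 of 16 alternatives. Atg13 rose in WT between the ages by 0.57 on the log2 scale (SE 0.122, edgeR adjusted p = 0.00575), a call that ended with total counts as library size, where the log2 change was 0.0441 (adjusted p = 0.798). It was lower in KO than in WT at 25 dpp by a log2 difference of -0.37 (SE 0.122, adjusted p = 0.0294 in edgeR), and this log2 difference turned to 0.0997 with total counts. This second call also ended without a filter on low counts, in a fit of the compared groups only, and in 7 of the 8 fits that left out 1 library (all but the second KO library of 19 dpp), with adjusted p-values up to 0.564.

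**Figure D2:**
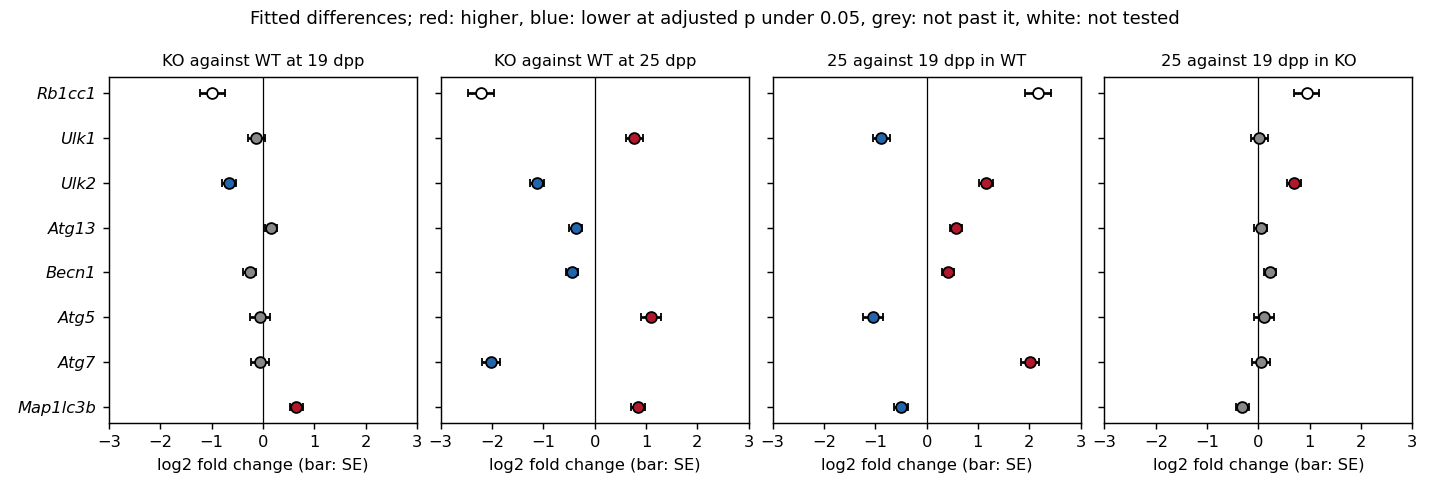
Log2 differences of the 8 genes in the 4 comparisons of groups, from edgeR with TMM scaling. Bars are SEs, each the size of the difference divided by the square root of edgeR's F statistic. Rb1cc1 is drawn without a test. Atg7, Ulk2 and Rb1cc1 lie furthest above 0 in WT between ages and furthest below it in KO at 25 dpp; under the Sertoli sum Ulk1, Atg5 and Map1lc3b turn to below 0 in KO at 25 dpp, and with total counts Atg13 and Becn1 turn to above it.

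In WT, Becn1 was 1.33 times as abundant at 25 dpp as at 19 dpp. The gene (chr11:101285952-101302286, minus strand) encodes Beclin 1, which holds the lipid kinase complex together. It had 143 and 153 CPM in WT, against 115 and 132 CPM in KO at 19 dpp, and 202 and 192 CPM in WT, against 142 and 147 CPM in KO at 25 dpp. The WT libraries of 25 dpp were the highest, and KO at 25 dpp overlapped WT at 19 dpp. Becn1 rose in WT by 0.41 on the log2 scale (SE 0.119, edgeR adjusted p = 0.0187) and was lower in KO than in WT at 25 dpp by a log2 difference of -0.44 (SE 0.119, adjusted p = 0.0126). With total counts these log2 values were -0.11 and 0.0265, with neither called, and both calls also ended without a filter on low counts, in a fit of the compared groups only and without the first WT library of 25 dpp (adjusted p = 0.0978 and 0.0847 in edgeR). The call in WT ended as well without either library of 19 dpp (0.112 and 0.0540), and that in KO without either KO library of 25 dpp (0.0846 and 0.0549), with adjusted p-values up to 0.493 and 0.875 over all alternatives. Becn1 shares 3104 exonic bases with Cntd1, a gene on the opposite strand that had 108 and 178 CPM in WT, against 5.57 and 14.4 in KO at 19 dpp, and 261 and 282 in WT, against 86.6 and 144 in KO at 25 dpp. Without the strand setting, reads of the shared stretch cannot be told apart, so the Becn1 level is uncertain.

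The conjugation pair parted as well. Atg7 (chr6:114643097-114860614, plus strand) encodes the enzyme that activates both ATG12 and LC3 for conjugation. It had 19.2 and 21.3 CPM in WT, against 19.5 and 19.5 CPM in KO at 19 dpp, and 94.0 and 70.1 CPM in WT, against 19.8 and 20.7 CPM in KO at 25 dpp. The 6 libraries outside WT at 25 dpp lay within 19.2 to 21.3 CPM, and the 2 WT libraries of 25 dpp stood far above them. Atg7 rose in WT by 2.02 on the log2 scale (SE 0.182, edgeR adjusted p = 4.16e-04), a 4.05-fold change, and was lower in KO than in WT at 25 dpp by a log2 difference of -2.02 (SE 0.182, adjusted p = 3.15e-04). In KO between the ages it was 0.05 (SE 0.177, adjusted p = 0.886 in edgeR). The KO effect differed between the ages by -1.96 (SE 0.251, edgeR adjusted p = 0.00609), and this call was kept in all 16 alternatives, with adjusted p-values up to 0.0364.

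Atg5 (chr10:44268358-44364291, plus strand) encodes the protein that is joined to ATG12 and then helps attach LC3 to membranes. It had 31.7 and 25.5 CPM in WT, against 26.9 and 27.9 CPM in KO at 19 dpp, and 11.9 and 15.7 CPM in WT, against 30.2 and 29.0 CPM in KO at 25 dpp. The WT libraries of 25 dpp were the lowest, without overlap, and the KO libraries of both ages overlapped WT at 19 dpp. Atg5 fell in WT by 1.05 on the log2 scale (SE 0.198, edgeR adjusted p = 0.00344) and was higher in KO than in WT at 25 dpp by 1.10 (SE 0.198, adjusted p = 0.00228). Under the Sertoli sum the first was -0.18 and not called, and the second was -0.30 and not called. The KO effect differed between the ages by 1.16 (SE 0.277, edgeR adjusted p = 0.0278), a call that ended under the Sertoli sum and in 6 of the 8 fits that left out 1 library (all but the second WT library of each age), with adjusted p-values up to 0.156.

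Map1lc3b (chr8:121590361-121598760, plus strand) encodes LC3B, the protein attached to the autophagosome membrane and the usual marker of it. It had 191 and 169 CPM in WT, against 304 and 262 CPM in KO at 19 dpp, and 122 and 132 CPM in WT, against 238 and 217 CPM in KO at 25 dpp. KO stood above WT at both ages without overlap. It was higher in KO by 0.65 on the log2 scale at 19 dpp (SE 0.133, edgeR adjusted p = 0.0148) and by 0.84 at 25 dpp (SE 0.133, adjusted p = 0.00138), and these log2 differences turned to -0.20 and -0.58 under the Sertoli sum. The call at 19 dpp also ended without the second WT library (adjusted p = 0.0960) or either KO library (0.138 and 0.0505) of that age. In WT it fell by 0.50 between the ages (SE 0.133, edgeR adjusted p = 0.0133), a log2 change that turned to 0.38 under the Sertoli sum, and was not called without the first WT library of 19 dpp (0.0850) or with DESeq2's size factors (0.0564). The KO effect was not called different between the ages (0.19, SE 0.187, edgeR adjusted p = 0.527), but it was in 1 of 16 alternatives. Map1lc3b shares 58 exonic bases with Zcchc14 on the opposite strand.

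The ratio of 2 genes within a library does not depend on how libraries are scaled, and 3 such ratios were taken per kilobase of exon after the values above were seen. Ulk2 to Ulk1 was 1.26 and 1.77 in WT, against 1.08 and 0.981 in KO at 19 dpp, and 7.49 and 5.11 in WT, against 1.53 and 1.78 in KO at 25 dpp. Atg7 to Atg5 was 0.204 and 0.282 in WT, against 0.245 and 0.236 in KO at 19 dpp, and 2.66 and 1.505 in WT, against 0.222 and 0.240 in KO at 25 dpp. Rb1cc1 to Ulk1 was 0.627 and 1.16 in WT, against 0.504 and 0.458 in KO at 19 dpp, and 9.29 and 5.59 in WT, against 0.750 and 1.08 in KO at 25 dpp. For Ulk2 to Ulk1 and Atg7 to Atg5, the WT libraries of 25 dpp stood above every other library. They did so for Rb1cc1 to Ulk1 as well, but Rb1cc1 was chosen for its high level there. The other pairs were picked after their genes were seen to part in these same libraries. All 3 ratios are therefore only descriptions. The log2 ratio of Ulk2 to Ulk1 was 2.05 higher in WT at 25 dpp than at 19 dpp, and between 1.77 and 2.32 higher with any 1 of the 4 libraries left out. For Atg7 to Atg5 it was 3.06 higher, and between 2.65 and 3.47. An exact permutation test of 2 libraries against 2 cannot give a two-sided p below 0.333, so none was made.

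**Figure D3:**
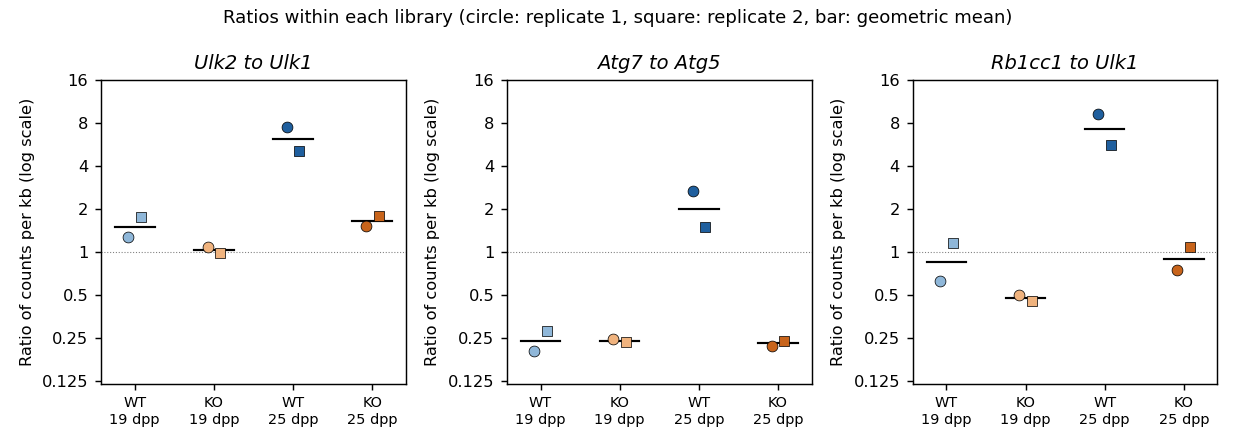
Ratios of Ulk2 to Ulk1, Atg7 to Atg5 and Rb1cc1 to Ulk1 per kilobase of exon in each library, on a log axis; points are libraries and bars are geometric means of a group. The 2 WT libraries of 25 dpp lie above the 6 others in each panel, at 5.11 to 7.49, 1.505 to 2.66 and 5.59 to 9.29. All panels are descriptions only. Rb1cc1 was chosen for its high level in these libraries, and the other pairs were picked after they were seen to part there.

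Levels per kilobase of exon (RPKM) set the genes in the same order in WT at 19 dpp and in KO at 25 dpp, and in other orders in the remaining groups. In WT at 19 dpp Map1lc3b (23.9 RPKM), Ulk2 (22.6) and Becn1 (20.95) led, each overlapping the next, followed by Atg13 (16.3), Ulk1 (15.1), Rb1cc1 (13.1) and Atg5 (12.2), which likewise overlapped from neighbour to neighbour, and Atg7 (2.91) was last. In WT at 25 dpp Rb1cc1 (59.4 RPKM) and Ulk2 (50.6) led and overlapped each other. Becn1 (27.9), Atg13 (24.1), Map1lc3b (16.9), Atg7 (11.8), Ulk1 (8.22) and Atg5 (5.88) followed without overlap. Map1lc3b led in KO at 19 dpp (37.6 RPKM) and at 25 dpp (30.3), and Atg7 was last there at both ages (2.80 and 2.91). In KO, Rb1cc1 stood between Atg5 and Atg7 at 19 dpp (6.66 RPKM, beside 11.6 for Atg5) and overlapped Ulk1 (14.1) and Atg5 (12.6) at 25 dpp (12.8). These values divide by the merged exons of all GENCODE M21 transcripts of a gene. The authors' annotation is not given in the sources used here. Merged exons can be longer than the transcripts present, so the order between genes depends on this choice.

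KO at 25 dpp and WT at 19 dpp were set side by side without a test. For 6 of the 8 genes the 2 libraries of each group overlapped, and for 2, Atg13 and Map1lc3b, they did not. Rb1cc1 is among the 6, but it was chosen as not rising in KO, so its overlap is only a description. Over all 23353 genes tested, 42.3% did not overlap between these groups. Atg7, at 19.8 and 20.7 CPM in KO at 25 dpp and 19.2 and 21.3 CPM in WT at 19 dpp, and Ulk1, at 93.4 and 89.1 CPM beside 107 and 89.0 CPM, lay within the span of WT at 19 dpp. Map1lc3b was higher in KO at 25 dpp, at 238 and 217 CPM beside 191 and 169 CPM. Summed spermatocyte and round spermatid markers overlapped between these groups, at 531 to 1088 beside 784 to 2053 CPM and 80.2 to 142 beside 77.5 to 256 CPM. Those of spermatogonia, early meiotic prophase, elongating spermatids, Leydig cells and macrophages overlapped as well. The sums for Sertoli, peritubular myoid and endothelial cells did not.

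A wider list of 71 other autophagy genes, covering the ULK and lipid kinase complexes, lipid transfer, conjugation, LC3 and GABARAP proteins, cargo receptors, upstream kinases and regulators, and fusion with the lysosome, was read in the same fit. In KO against WT at 25 dpp 32 were higher and 19 lower (71.8% called, beside 63.5% of all genes), with a median log2 difference of 0.32. In WT between the ages 20 were higher and 25 lower (63.4%, beside 60.3%), with a median of -0.19. At 19 dpp 6 were higher and 3 lower in KO (12.7%, beside 22.0%), and between the ages in KO 4 were higher and 3 lower (9.86%, beside 19.1%). Between the ages in KO, edgeR called 0 without any 1 of the 4 KO libraries (6 to 13 at an unadjusted p under 0.05). At 19 dpp it called 0 without the first KO library (8 at an unadjusted p under 0.05), 2 without the second and 3 without the second WT library. With all libraries DESeq2 called 24 at 19 dpp and 18 between the ages in KO. The KO effect differed between ages for 13 (18.3%, beside 19.1%). With total counts the split in KO at 25 dpp was 46 higher and 11 lower, and with the Sertoli sum 1 higher and 55 lower. In WT between ages it was 11 higher and 43 lower, and 43 higher and 0 lower. Over all genes the splits in KO at 25 dpp were 8995 higher and 7105 lower, and 264 higher and 16187 lower. In WT between ages they were 6295 higher and 9718 lower, and 11762 higher and 469 lower.

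By role, the upstream kinases and regulators had 13 of 18 higher and 3 lower in KO at 25 dpp, where 26.1% of all genes were higher and 37.4% lower, and 3 higher and 9 lower in WT between ages, where 34.9% and 25.4% were. Cargo receptors, which tie the material to be degraded to LC3, had 5 higher and 3 lower of 10 in KO. Lipid transfer genes had 2 higher and 5 lower of 10, conjugation genes 3 higher and 2 lower of 9, the lipid kinase complex 1 higher and 1 lower of 7, and fusion genes 6 higher and 3 lower of 12. Of the 4 other LC3 and GABARAP genes, 1 was higher and 2 were lower. These counts are under TMM scaling, and the roles were not counted under another one.

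The 3 genes of the list that were lowest in KO against WT at 25 dpp were Atg9a, Map1lc3a and Gabarap. Atg9a, which encodes a lipid scramblase of the vesicles that seed the autophagosome, had 31.5 and 39.7 CPM in WT, against 24.7 and 26.8 CPM in KO at 19 dpp, and 251 and 183 CPM in WT, against 33.4 and 32.0 CPM in KO at 25 dpp. It was lower in KO than in WT at 25 dpp by a log2 difference of -2.73 (SE 0.197, edgeR adjusted p = 3.08e-04). Map1lc3a, which encodes LC3A, had 30.6 and 42.5 CPM in WT, against 38.9 and 42.5 CPM in KO at 19 dpp, and 204 and 146 CPM in WT, against 34.8 and 35.3 CPM in KO at 25 dpp. Its KO difference at 25 dpp was -2.32 (SE 0.219, adjusted p = 3.23e-04 in edgeR), the opposite direction to that of Map1lc3b under TMM, but the same direction under the Sertoli sum. Gabarap, of the sister family, had 381 and 291 CPM in WT, against 109 and 103 CPM in KO at 25 dpp, a difference of -1.66 (SE 0.191, adjusted p = 4.71e-04 in edgeR). Atg9a, Map1lc3a and Gabarap were called lower in KO at 25 dpp in all 17 alternatives.

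The 3 that were highest in KO against WT at 25 dpp were Deptor, an inhibitor of the mTOR kinase, Prkaa2, a catalytic subunit of the energy sensor AMPK, and Bnip3, a receptor for mitochondria. Deptor had 13.8 and 14.2 CPM in WT, against 58.5 and 65.2 CPM in KO at 25 dpp (log2 difference 2.15, SE 0.246, edgeR adjusted p = 4.65e-04). It was also higher in KO at 19 dpp, at 116 and 92.2 CPM beside 49.95 and 30.7 CPM (1.37, SE 0.238, adjusted p = 0.0103 in edgeR). Prkaa2 had a log2 difference of 1.72 (edgeR adjusted p = 0.00290) and Bnip3 of 1.61 (9.70e-04) at 25 dpp, and neither was called under the Sertoli sum. Foxo3 and Tfe3, which encode transcription factors of autophagy and lysosome genes, were higher in KO at 19 dpp by 0.84 and 0.83 (edgeR adjusted p = 0.0143 and 0.0108), and were -0.0128 and -0.0293 under the Sertoli sum. The calls of Deptor, Foxo3 and Tfe3 at 19 dpp ended without the first KO library of that age, that of Foxo3 also without the second KO or the second WT library, and that of Deptor under the Sertoli sum. Tollip, Atg2b and Wipi2 were lower in KO at that age, by log2 differences of -0.55, -0.46 and -0.41, and these calls ended in 3, 6 and 9 of 17 alternatives, each time including the fits without either KO library or the second WT library of 19 dpp. In WT between the ages Optn, a cargo receptor, rose by 1.92, while Wdr45 and Atg4a fell by 1.23 and 1.21, log2 changes that were -0.34 and -0.35 and not called under the Sertoli sum. In KO between the ages Tollip, Tmem41b and Atg2b rose by 0.65, 0.57 and 0.53, and Tfe3, Prkaa1 and Ykt6 fell by 0.69, 0.56 and 0.43. All 6 of these calls in KO ended without any 1 of the 4 KO libraries, and in 5, 4, 5, 5, 10 and 11 of 17 alternatives in the order given.

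**Figure D4:**
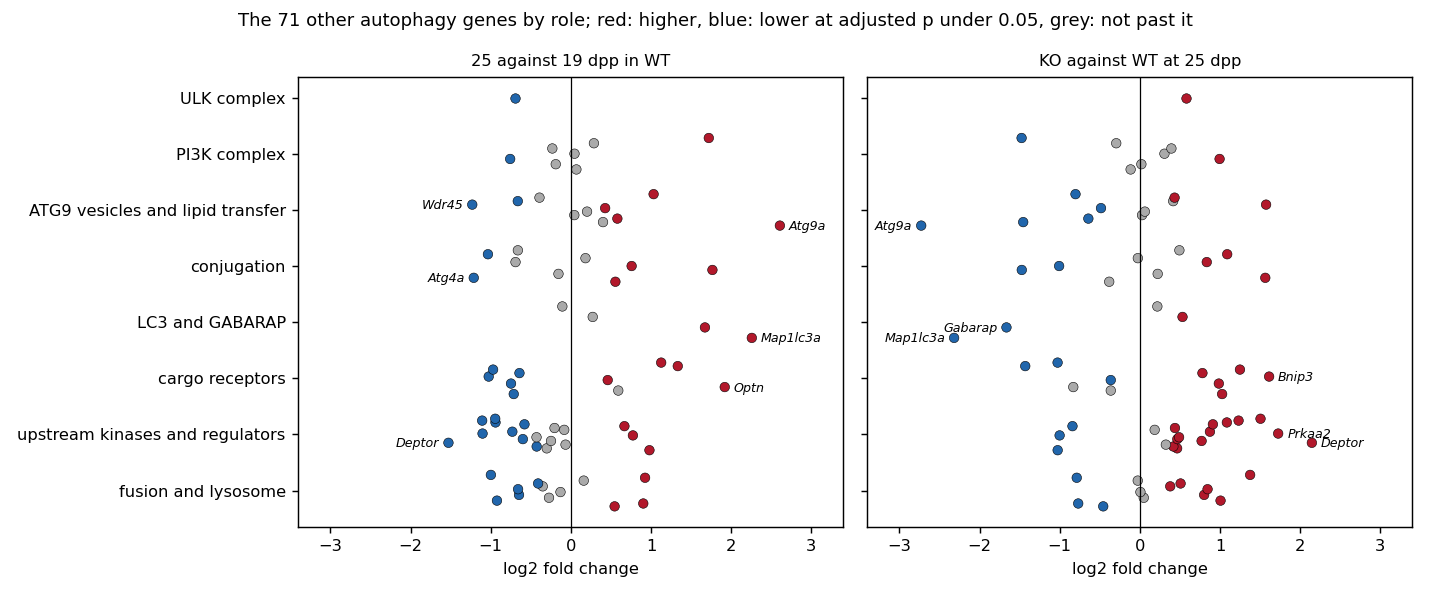
Log2 difference in WT between ages (left) and in KO against WT at 25 dpp (right) for the 71 other autophagy genes by role, under TMM scaling; each point is a gene, coloured by its call, and the panels share the WT libraries of 25 dpp. Atg9a and Map1lc3a lie furthest to the right in WT and furthest to the left in KO. With the Sertoli sum the KO panel would hold 1 higher and 55 lower genes, beside 264 and 16187 over all genes. With total counts it would hold 46 and 11, beside 8995 and 7105.

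The genes whose pattern was most like that of Rb1cc1 were found by Pearson's r of log2 CPM over the 8 libraries, among 11998 genes with a mean of at least 8 CPM. The libraries fall into 4 groups and differ in depth and in marker sums, so r is given as a description. Ift74, a subunit of the transport complex of cilia and flagella, came first (r = 0.9996), followed by Mtmr6, a lipid phosphatase (0.9994), Pkig, an inhibitor of protein kinase A (0.9991), Glt8d1 (0.9987), Btbd16 (0.9984), Fam98a (0.9982), Bscl2, the lipid droplet protein seipin (0.9982), and Cog4, a Golgi tether (0.9981). Ift74 had 58.7 and 85.3 CPM in WT, against 36.8 and 38.0 CPM in KO at 19 dpp, and 329 and 244 CPM in WT, against 58.3 and 81.7 CPM in KO at 25 dpp. As for Rb1cc1, the second WT library was the higher at 19 dpp and the lower at 25 dpp. The genes were picked by r over these same libraries, so a shared order is part of the choice. Btbd16 had the same order with a wider span, from 0.587 CPM in KO at 19 dpp to 271 CPM in WT at 25 dpp, so r measures the shape and not the size of the change. Of the autophagy list, Ulk2 came closest (r = 0.993, rank 205), then Tollip (0.990, rank 357) and Mtor (0.987, rank 486). By the distance between log2 profiles instead of r, 1 of these 8 genes was among the first 8, and with total counts as library size 5 were.

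**Figure D5:**
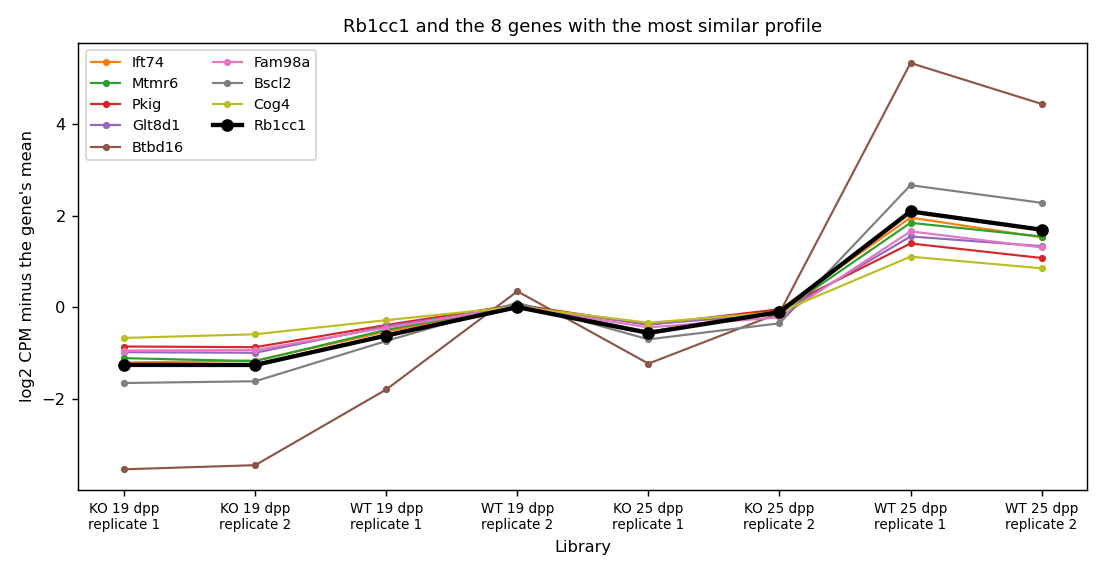
Level of Rb1cc1 and of the genes whose pattern is most like it in each library, as log2 CPM minus each gene's own mean; lines join the values of 1 gene. The genes were picked by r over these same libraries, so their lines follow Rb1cc1 by choice. They run from lowest in KO at 19 dpp to highest in WT at 25 dpp, with Btbd16 spanning the widest range.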

How the data were processed

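Per the labels' protocols, Trizol RNA of whole testis was cleared of DNA and sequenced from a stranded mRNA kit. The authors deposited raw counts per gene, 1 file per library, made with STAR 2.7.0a, featureCounts 1.5.1 and mm10 per the submitters' processing notes; the strand setting, the annotation and the treatment of reads with several alignments are not given in the sources used here. Each file held 55292 entries, and 1205 repeat families were kept out of library sizes and tests. Counts were filtered with filterByExpr, which left 23353 genes, scaled by TMM and fitted in edgeR 4.0.16 (R 4.3.3) with robust quasi-likelihood, 1 mean per group and 4 residual degrees of freedom (3 with 1 library left out, whose group's lone library is assumed to vary like the others). Benjamini-Hochberg adjustment ran over all genes tested at 0.05. Each SE was the size of the log2 difference divided by the square root of edgeR's F statistic. Replicates differed beyond sampling noise in every group (chi-square per degree of freedom 14.6 to 74.3).

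The members and lists were chosen with earlier results of these data known. Named genes were the 8 members, the 3 largest called changes of the wider list per direction and comparison, and the 8 genes with the highest r with Rb1cc1, leaving out Gm, Rik, LOC and mt- names, plus the 3 of the list. The alternatives scaled by DESeq2's size factors, by total counts or by the Sertoli marker sum, used no filter or 5 CPM in 2 libraries, DESeq2 1.42.0, limma-voom (limma 3.58.1), a replicate block or only the groups compared, or left out each library in turn. The within-library ratios were chosen after seeing the data. Gene spans and exon lengths are from GENCODE M21 and promoters from RefSeq.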

Additional observations from a re-analysis of the deposited data

Results flagged for a closer look

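The effect of the KO differed between 25 and 19 dpp, by the fit's own test of that difference (edgeR, adjusted over 23353 genes), for 3 of the 7 genes tested, where 19.1% of all genes were called. The difference was -1.96 on the log2 scale for Atg7 (adjusted p = 0.00609), 0.899 for Ulk1 (adjusted p = 0.0324) and 1.16 for Atg5 (adjusted p = 0.0278).

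Of the 71 genes of the wider autophagy list the same test called 13 (18.3%), and the 3 with the largest difference in each direction are given. Map1lc3a (-2.47, edgeR adjusted p = 0.00564), Atg9a (-2.26, adjusted p = 0.00546) and Atg4c (-1.62, adjusted p = 0.00893) had a lower KO effect at 25 dpp than at 19 dpp. Bnip3 (1.34, edgeR adjusted p = 0.0287), Lamp2 (1.10, adjusted p = 0.0125) and Atg16l1 (1.08, adjusted p = 0.0283) had a higher one. The calls of Map1lc3a, Atg9a and Atg4c were kept in all 16 alternatives. Those of Bnip3, Lamp2 and Atg16l1 ended in 6, 3 and 7 of them. Atg4c, which encodes a protease that prepares LC3-type proteins, had 14.1 and 16.1 CPM in WT, against 18.6 and 14.9 CPM in KO at 19 dpp, and 55.0 and 47.6 CPM in WT, against 18.8 and 18.2 CPM in KO at 25 dpp. Lamp2, a protein of the lysosome membrane, had 164 and 148 CPM in WT, against 193 and 183 CPM in KO at 19 dpp, and 75.7 and 80.3 CPM in WT, against 226 and 179 CPM in KO at 25 dpp. Groups of 2 libraries are too small to look for a library that stands apart.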

How the results depend on the processing

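With 2 libraries per group, single libraries and the scaling set many calls. With the Sertoli marker sum as library size, 6 of the 7 genes tested were called in KO against WT at 19 dpp (2 with TMM), 4 in WT between ages (7 with TMM) and 1 for the difference of the KO effect (3 with TMM). Over all genes, WT between ages had 12231 calls with that sum and 14079 with TMM. DESeq2's Wald test called 2 in KO between ages (1 in edgeR) and 5 for the difference. Leaving out 1 library gave 0 to 2 calls in KO against WT at 19 dpp, 5 to 7 at 25 dpp, 5 to 7 in WT between ages, 0 to 1 in KO between ages and 1 to 3 for the difference. Over all genes, KO against WT at 19 dpp had 5145 calls, 9906 with the Sertoli sum, 7830 by DESeq2 and 0 to 5632 with 1 library left out; the 0 is edgeR's count without the first KO library of 19 dpp, with 5256 genes at an unadjusted p under 0.05. KO between ages had 4451 calls, 2593 with the Sertoli sum, 7318 by DESeq2, 6697 with only the groups compared and 17 to 4794 with 1 library left out. The difference had 4464 calls, 7515 with total counts, 2772 with the Sertoli sum, 7884 by DESeq2 and 1117 to 5624 with 1 library left out. For the difference in the 71 other genes, 13 were called by edgeR, 35 with total counts, 31 by DESeq2 and 5 to 22 with 1 library left out; at 19 dpp it was 9, 43 with the Sertoli sum and 0 to 12; in KO between ages 7, 1 with the Sertoli sum and 0 to 8.

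Signs turned as follows; the cause was not tested. Under the Sertoli sum the log2 values were, at 19 dpp, Atg13 -0.690, Map1lc3b -0.202, Foxo3 -0.0128 and Tfe3 -0.0293; at 25 dpp, Ulk1 -0.631, Atg5 -0.303 and Map1lc3b -0.579; and for Map1lc3b 0.379 in WT between ages, 0.00149 in KO between ages and -0.377 for the difference. With total counts they were, at 25 dpp, Atg13 0.0997 and Becn1 0.0265; Becn1 -0.111 in WT between ages; and, for the difference, Ulk2 0.0886, Atg13 0.0206 and Becn1 0.365. At 19 dpp, with 1 library left out, Ulk1 ranged from -0.252 to 0.0186, Atg5 from -0.212 to 0.104 and Atg7 from -0.128 to 0.0227. In KO between ages Ulk1 was -0.00799 with at least 5 CPM in 2 libraries and ranged from -0.0502 to 0.100 with 1 library left out, and Atg13 from -0.0322 to 0.124.

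No label says that replicate numbers pair the samples, and deviations of same-numbered libraries had r from -0.0877 to 0.361. With the replicate block the members called were 2, 7, 7, 1 and 3 in KO against WT at 19 and 25 dpp, WT and KO between ages and the difference, as without it, and 4 of the 71 others in KO between ages in place of 7.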
